A study of Wolfiporia cocos with 12 samples.

Results

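The cytochrome P450 family of Wolfiporia cocos, a basidiomycete that causes brown rot of wood, was followed across 4 carbon sources. Members were all gene models of the deposited table whose InterPro label contains the words cytochrome P450, without protein IDs 99035, 24177, 24176, 104855 and 136784, which the selection leaves out. This gave 202 members among 12746 models (1.59%). By words in the label, 59 members were placed in E-class group I, 7 in E-class group IV and 1 in B-class. The other 135 had none of these class words. A group II label, if there was any, would be counted under group I. The labels give a protein family and not a substrate, so members are called by protein ID and no individual role is stated.

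Strain MD-104 was grown in triplicate shaken cultures of 250 ml that were harvested after 5 days. The pine group had milled lodgepole pine (Pinus contorta) and the aspen group milled Populus grandidentata, each at 0.5% w/v in basal salts with no other carbon source. The Avicel group had a microcrystalline cellulose and the glucose group had glucose, both in defined medium, and whether its salts matched those of the wood cultures is not stated. RNA came from whole mycelium, with 3 libraries per group and 12 in all, so fewer cells of a type and less RNA per cell cannot be told apart.

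Cytochromes P450 are heme enzymes that insert an oxygen atom from O2 into a substrate, with electrons that mostly come from NADPH through a reductase or through cytochrome b5. Wood-decay basidiomycetes carry large P450 families, and members are known to hydroxylate fatty acids and sterols, to take part in the synthesis of secondary metabolites and to oxidise aromatic compounds and resin constituents of wood. Many fungal P450 genes lie side by side in tandem groups, which usually arise by gene duplication.

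Values are taken as RPKM (reads scaled to model length in kb and to 1e6 reads). Depth, recovered from the spacing of low values and given in 1e6 reads, was 11.2 to 18.21 for pine, 11.66 to 22.44 for aspen, 9.83 to 17.84 for Avicel and 17.39 to 21.36 for glucose, and 3 reads in a model of 1 kb equalled 0.134 to 0.305 RPKM. That floor covers counting error only. The wood libraries were run on lane 2 and the Avicel and glucose libraries on lane 1, so lane, base medium and wood cannot be told apart where wood is set against Avicel or glucose. The other 2 comparisons, Avicel with glucose and pine with aspen, do not cross lanes. The shallowest libraries were Avicel 3, pine 2 and aspen 3.

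Most of the family was transcribed at low to moderate levels, and a small number of members held most of its RNA. Averaged over the 12 libraries, 20 members reached 100 RPKM or more, 66 lay from 10 to 100, 81 from 1 to 10 and 35 below 1. The median member stood at 7.5 RPKM, against 11.9 for the median model of the table. In each library 151 to 168 members had at least 1 RPKM, and 7 members were listed at 0 in all 12 libraries. The 10 most abundant members together held 48.7% of the summed RPKM of the family, and the 20 most abundant held 66.6%.

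The 10 most abundant members differed in how they followed the carbon source. Member 139745 had 439, 523 and 483 RPKM on pine, 517, 419 and 453 on aspen, 603, 391 and 468 on Avicel and 464, 618 and 483 on glucose. Its groups overlapped throughout, and it was called in no comparison. Member 22508 had 617, 774 and 799.7 RPKM on pine, 1090.2, 723 and 1076 on aspen, 648, 593 and 627 on Avicel and 387, 549 and 463 on glucose. Every wood and Avicel library lay above the glucose libraries, and its level was called higher on aspen against glucose (log2 change 1.03, SE 0.20, limma adjusted p = 0.00268), a call whose log2 change fell under the fold threshold without aspen 1 (0.93), aspen 3 (0.94) or glucose 1 (0.91). Member 135641 had 185, 518 and 281 RPKM on pine, 315, 640.1 and 466 on aspen, 447, 449 and 513 on Avicel and 240.1, 179 and 272 on glucose. All Avicel and aspen libraries were above glucose and pine 1 fell inside the glucose range, and it was called in no comparison. On aspen against glucose it passed the limma test (adjusted p = 0.0495) with a log2 change just under the fold threshold (0.998, SE 0.34). Member 139417 varied widely among replicates, with 216, 75.1 and 618 RPKM on pine, 179, 55.9 and 405 on aspen, 288, 189 and 432 on Avicel and 103, 77.4 and 51.2 on glucose. Its 3 Avicel libraries lay above every glucose library, its wood libraries reached from inside the glucose range to well above it, and it was called in no comparison. The other 6 of these 10, namely 22844, 138085, 138804, 155285, 155400 and 166481, were called in at least 1 comparison and are described with those comparisons.

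Summed over its 202 members, the family took more RPKM on wood and on Avicel than on glucose, with 1 exception among the libraries. The sum was 7443, 8819 and 10034 RPKM on pine, 8929, 8015 and 9719 on aspen, 8119, 7876 and 9712 on Avicel, and 6786, 7717 and 6585 on glucose. Pine 1 lay inside the glucose range, and the other 8 wood and Avicel libraries lay above it. As a share of all RPKM this was 1.24% ± 0.185 on pine, 1.28% ± 0.105 on aspen, 1.12% ± 0.111 on Avicel and 0.945% ± 0.0624 on glucose (SD, n = 3 each). Pine 1 was again the only wood or Avicel library inside the glucose range when the most abundant member was left out. Without 22508 the sums were 6827, 8045 and 9234 RPKM on pine, 7839, 7292 and 8642 on aspen, 7471, 7283 and 9085 on Avicel, and 6399, 7168 and 6122 on glucose. These sums are given as a description without a test.

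**Figure D1:**
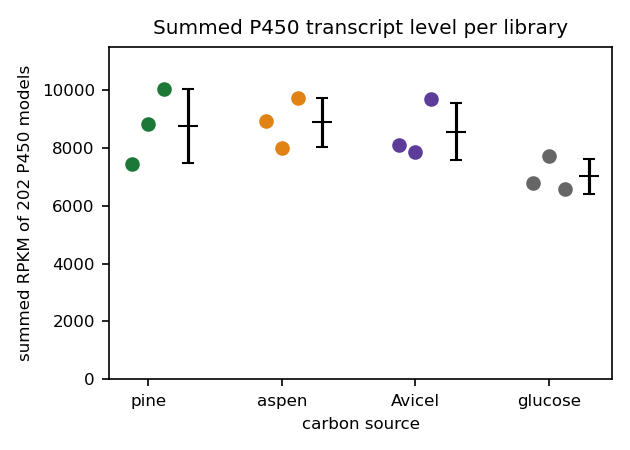
Summed RPKM of the 202 P450 members in each library (points), with the mean and SD of the 3 cultures (bar) beside them, by carbon source. Pine 1, at 7443 RPKM, is the only wood or Avicel library inside the range of the glucose libraries, 6585 to 7717.

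Of the 202 members, 176 had a mean of at least 1 RPKM in some group and were tested, and 26 were too low to be tested. A member passed that filter through whichever group was highest, so the counts that follow describe tested members only. In the limma F test over the 4 carbon sources, 78 of 176 tested members (44.3%) differed at an adjusted p under 0.05, beside 29.3% of all 10184 tested models. Of these 78 members, 23 had their highest mean on pine, 15 on aspen, 13 on Avicel and 27 on glucose. As shares these are 29.5%, 19.2%, 16.7% and 34.6%, beside 26.3%, 18.9%, 10.9% and 43.9% of all models that differed. In pairwise comparisons a model was called at a limma adjusted p under 0.05 together with a fold of at least 2 on log2(RPKM + 1), a scale that understates the change of low models. By that measure 60 tested members (34.1%) were called in at least 1 comparison, beside 16.7% of all tested models, and 116 in none. The heat map of the 60 called members shows 3 broad forms, members high on both woods, members high on Avicel and members high on glucose.

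**Figure D2:**
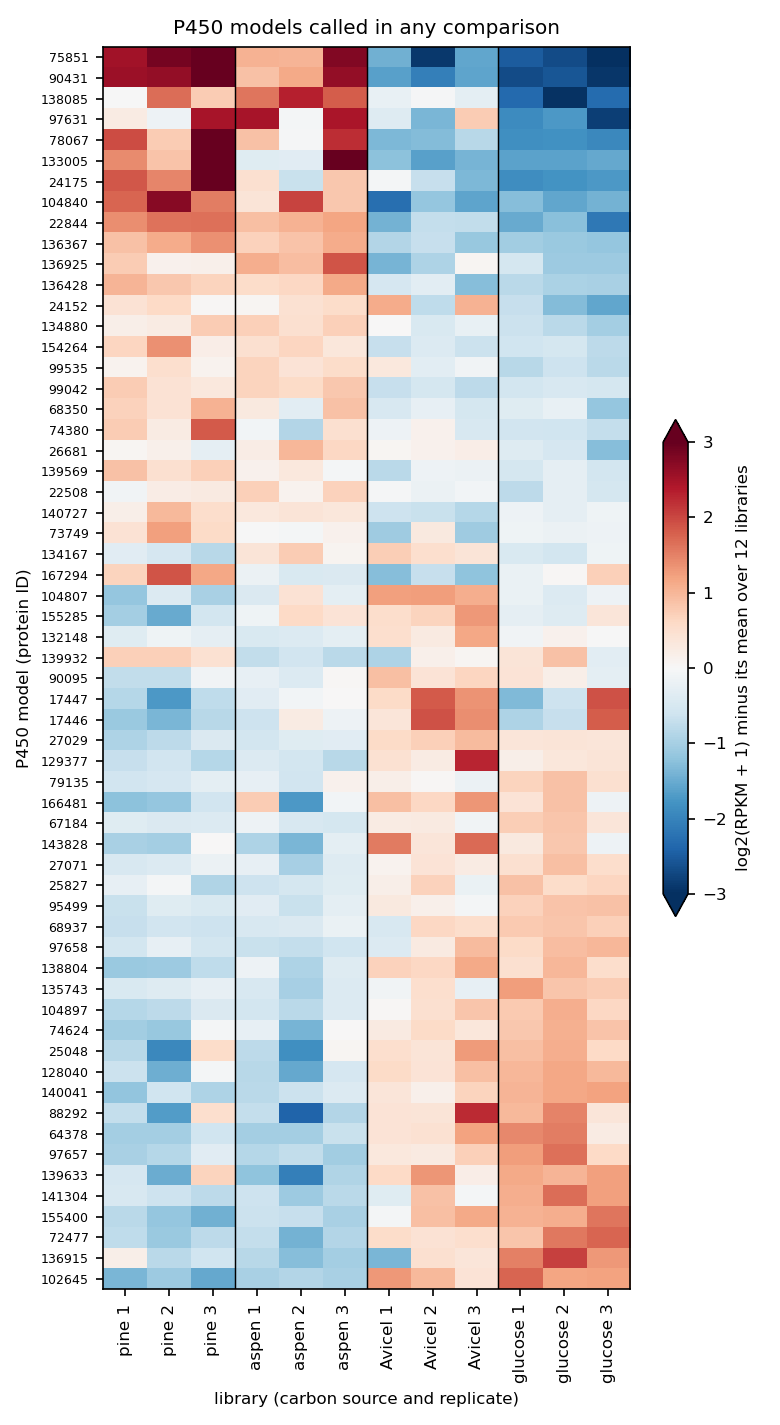
Heat map of the 60 P450 members called in at least 1 comparison, with a row per member (protein ID) and a column per library. Colour gives log2(RPKM + 1) minus the member's mean over the 12 libraries, from blue (lower) through white to red (higher), limited to 3 on either side. Members at the top are high in the pine and aspen libraries and members at the bottom are high in the glucose libraries.

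Growth on pine or aspen, against glucose, moved P450 transcripts in both directions in near equal numbers. On pine 20 members were called higher and 21 lower, 41 in all (23.3% of those tested), beside 11.8% of all tested models. On aspen 18 were called higher and 23 lower, also 41 (23.3%), beside 11.8% of all tested models. By direction the share of all models was 5.61% higher and 6.2% lower on pine, and 5.24% higher and 6.56% lower on aspen. The median log2 change of the tested members was -0.05 on pine and -0.11 on aspen, beside -0.14 and -0.12 for all models. Both woods were set against the same 3 glucose libraries, so their calls are not independent. Against glucose, 15 members were called higher on both woods, 5 on pine alone and 3 on aspen alone, and 19 were called lower on both, 2 on pine alone and 4 on aspen alone. None was called higher on one wood and lower on the other. At a fold of at least 4, 15 members were called on pine (8.52%, beside 3.96% of all models) and 18 on aspen (10.2%, beside 3.57%).

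**Figure D3:**
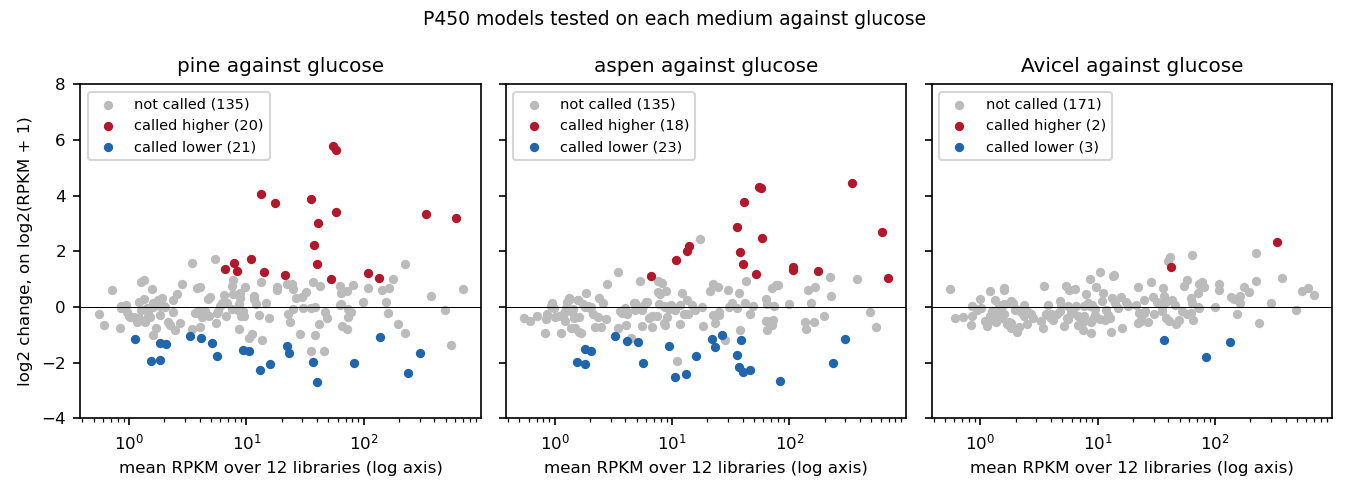
Log2 change of each of the 176 tested P450 members against glucose, on log2(RPKM + 1), plotted against its mean RPKM over 12 libraries (log axis), for pine, aspen and Avicel. Red points are members called higher (20 on pine, 18 on aspen and 2 on Avicel) and blue points members called lower (21, 23 and 3). The rises on wood reach log2 changes of 5.80 on pine and 4.45 on aspen, whereas no fall exceeds 2.71 in size.

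The widest rises on wood belonged to 75851 and 90431, which lie 62 bp apart on the same strand of scaffold 7 (1232403 to 1234356 in the deposited coordinates, with no build named). Member 75851 had 95.5, 123 and 239 RPKM on pine, 33.5, 33 and 115 on aspen, 5.22, 1.26 and 4.73 on Avicel and 2.0, 1.62 and 1.11 on glucose. Member 90431 had 117, 122 and 231 RPKM on pine, 35.7, 42.5 and 123 on aspen, 5.44, 3.76 and 5.63 on Avicel and 2.1, 2.35 and 1.61 on glucose. Both were lowest on glucose and Avicel, and higher in every wood library than in any other, with pine 3 and aspen 3 the highest of their groups. On pine the log2 changes were 5.80 (SE 0.51, adjusted p = 1.11e-05) for 75851 and 5.64 (SE 0.40, adjusted p = 2.4e-06) for 90431. On aspen they were 4.33 (adjusted p = 0.000107) and 4.28 (adjusted p = 2.21e-05), and without aspen 3 that of 75851 was 3.74. Model 75851 spans only 258 bp and 90431 spans 1634 bp, both shorter than the median member (2231 bp), and whether they are parts of a single gene was not tested.

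Among abundant members, 22844 and 138085 rose most. Member 22844 had 1108, 1299 and 1310.1 RPKM on pine, 781, 863 and 959 on aspen, 156, 256 and 249 on Avicel and 147, 174 and 93.6 on glucose. Each wood library lay above every Avicel and glucose library, and the Avicel and glucose ranges overlapped. Its log2 change against glucose was 3.20 on pine (SE 0.24, adjusted p = 3.54e-06) and 2.68 on aspen (adjusted p = 1.73e-05). At 1239 ± 114 RPKM it was the most abundant member on pine.

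Member 138085 had 196, 627 and 333 RPKM on pine, 598, 997 and 692 on aspen, 167, 192 and 159 on Avicel and 38.5, 24.4 and 38.7 on glucose. All 9 wood and Avicel libraries were above the glucose libraries, and every wood library was above every Avicel library. Against glucose the log2 change was 3.34 on pine (SE 0.35, adjusted p = 4.32e-05) and 4.45 on aspen (SE 0.35, adjusted p = 7.29e-06), the widest on aspen. In both woods replicate 2 was the highest. The plot of 16 members by library shows these steps down from wood through Avicel to glucose.

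Members 104840, 78067 and 97631 rose on both woods and 133005 on pine, with wide spread among cultures. Member 104840 had 105, 211 and 91.9 RPKM on pine, 40.8, 129 and 55 on aspen, 5.62, 13.3 and 9.55 on Avicel and 12.1, 9.76 and 11 on glucose. Wood libraries lay above all others, and Avicel and glucose overlapped, with log2 changes against glucose of 3.42 on pine (adjusted p = 0.000126) and 2.50 on aspen (adjusted p = 0.00123). Member 78067 had 67.4, 28.8 and 173 RPKM on pine, 31.3, 16 and 79.9 on aspen, 5.83, 6.07 and 8.82 on Avicel and 3.92, 3.94 and 3.58 on glucose. Again every wood library was above every other, with a log2 change of 3.88 on pine (SE 0.59, adjusted p = 0.000623) and 2.88 on aspen (SE 0.59, adjusted p = 0.00437). Single libraries moved these values: without pine 2 the log2 change of 78067 on pine was 4.51, without pine 3 it was 3.23, and without aspen 3 the aspen change was 2.29.

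Member 97631 had 24.7, 18.6 and 120.5 RPKM on pine, 119, 19.9 and 119 on aspen, 15.5, 7.41 and 35.8 on Avicel and 4.84, 5.62 and 2.05 on glucose. It was high in pine 3, aspen 1 and aspen 3, the other wood libraries lay inside the Avicel range, and all wood and Avicel libraries lay above glucose. The log2 change against glucose was 3.77 on aspen (SE 0.81, adjusted p = 0.00552) and 3.01 on pine (SE 0.81, adjusted p = 0.018). Without aspen 2 the aspen value was 4.61, and the pine call was lost without pine 3 (log2 change 2.19, adjusted p = 0.0592) or glucose 3 (adjusted p = 0.0653). Member 133005 had 15.8, 10.4 and 109 RPKM on pine, 3.84, 3.95 and 59.1 on aspen, 1.69, 1.02 and 1.4 on Avicel and 1.04, 1.06 and 1.17 on glucose. It stood apart in pine 3 and aspen 3, and was called on pine (log2 change 3.72, SE 0.93, limma adjusted p = 0.0124) but not on aspen (log2 change 2.43, SE 0.93, adjusted p = 0.0756). Without pine 3 the log2 change on pine was 2.73, and without pine 2 it was 4.36.

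Member 24175 on scaffold 3 had 24.7, 18.4 and 80.0 RPKM on pine, 8.86, 3.42 and 11.4 on aspen, 5.82, 3.4 and 1.77 on Avicel and 0.946, 1.03 and 1.13 on glucose. Every pine library was above every aspen library and every aspen library above the glucose ones, while aspen and Avicel overlapped. The log2 change against glucose was 4.08 on pine (SE 0.52, adjusted p = 0.00016), or 3.46 without pine 3, and 2.0 on aspen (adjusted p = 0.0149, and 0.059 without aspen 3, which ends the call). Member 136367 rose with little spread, at 66.5 ± 11.7 RPKM on pine, 55.8 ± 8.44 on aspen and 13.2 ± 0.615 on glucose (log2 change 2.23 and 1.99 for pine and aspen, SE 0.16). Member 136925 averaged 14.5 ± 4.06 RPKM on pine, 29.4 ± 11.4 on aspen and 5.45 ± 1.49 on glucose. It was called on aspen (log2 change 2.20, adjusted p = 0.00105) and on pine (1.25, adjusted p = 0.0243), and the pine call was lost without pine 1, glucose 2 or glucose 3 (adjusted p up to 0.0825). The 20 rises on pine covered log2 changes of 1.02 to 5.80 with a median of 1.98, and the 18 on aspen 1.03 to 4.45 with a median of 1.99.

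**Figure D4:**
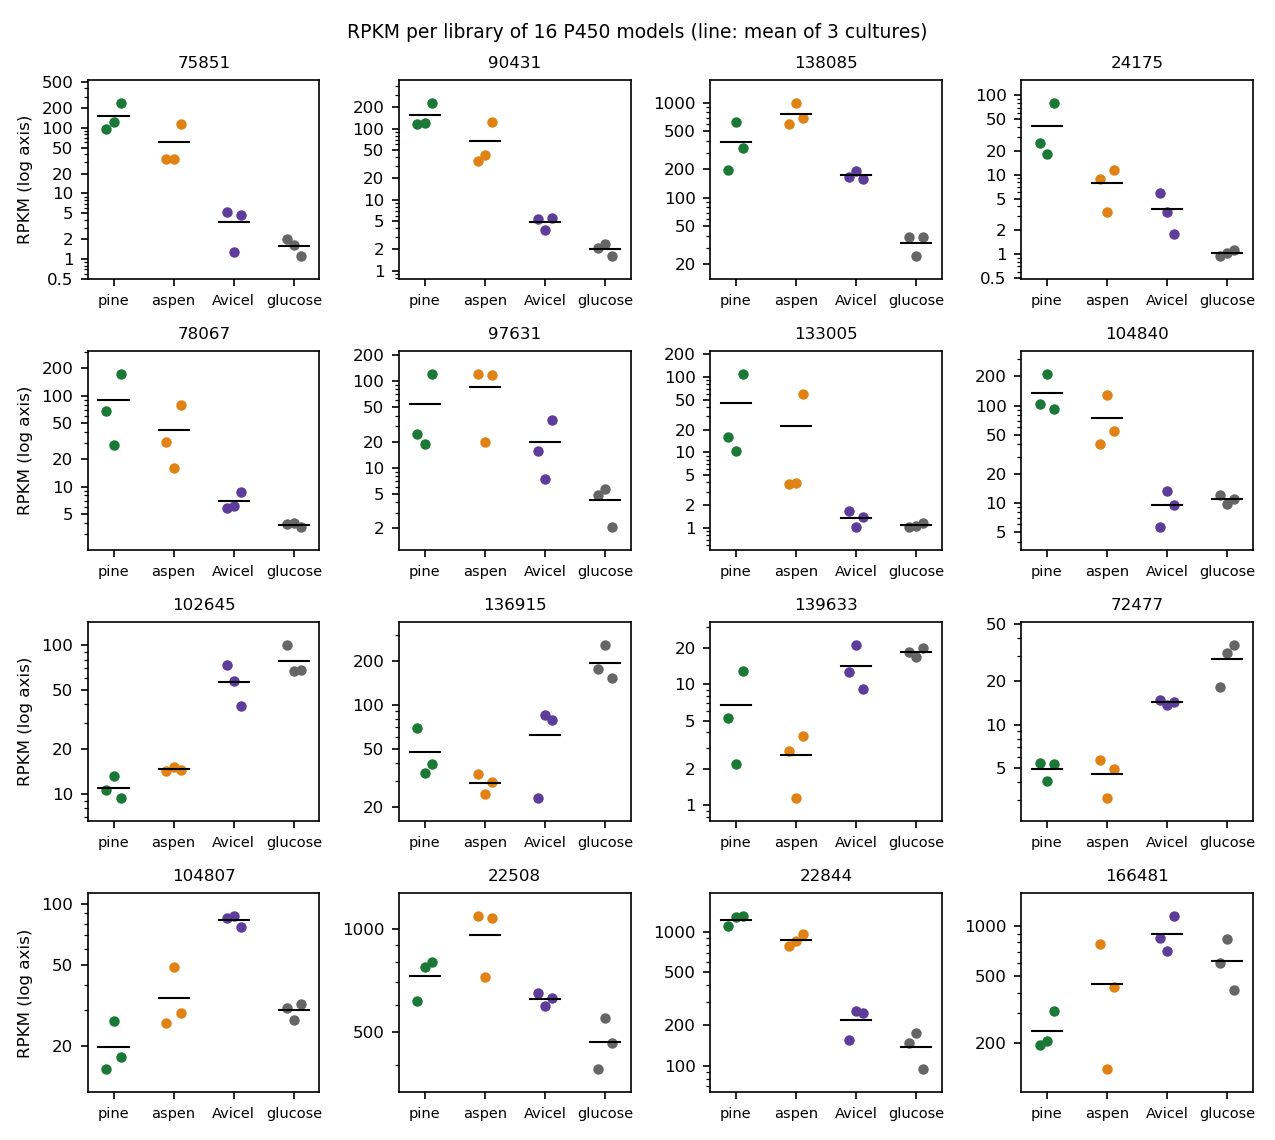
RPKM of 16 P450 members in each library (points, log axis) with the mean of 3 cultures (line), by carbon source. The upper 8 members are the widest called rises on wood, the next 4 (102645, 136915, 139633 and 72477) the widest called falls on wood, then 104807 is high on Avicel, and 22508, 22844 and 166481 are abundant members not among these.

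Falls on wood were smaller than the widest rises and were shared by members of all levels. Member 155400, among the 10 most abundant, had 105, 82 and 67.1 RPKM on pine, 118, 113 and 93.7 on aspen, 176, 348 and 409 on Avicel and 382, 392 and 559 on glucose. All wood libraries lay below all Avicel and glucose libraries, and its log2 change against glucose was -2.38 on pine (SE 0.29, adjusted p = 0.000114) and -2.01 on aspen (adjusted p = 0.000395). Member 102645 had 10.6, 13.1 and 9.34 RPKM on pine, 14.3, 15.3 and 14.4 on aspen, 73.1, 57.7 and 39.1 on Avicel and 99.9, 67.5 and 67.8 on glucose. Both woods formed a narrow low range below all other libraries, with a log2 change of -2.71 on pine, the widest fall there (SE 0.22, adjusted p = 6.16e-06), and -2.32 on aspen (adjusted p = 2.57e-05).

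Member 136915 had 69.1, 34.5 and 39.6 RPKM on pine, 33.8, 24.5 and 29.5 on aspen, 23, 85.1 and 78.5 on Avicel and 174, 254 and 152 on glucose. Every library of the other 3 carbon sources was below every glucose library, with a log2 change of -2.66 on aspen, the widest fall there (SE 0.43, adjusted p = 0.000928), and -2.03 on pine (adjusted p = 0.00525). Member 141304 had 20.9, 19 and 16.7 RPKM on pine, 19, 13.4 and 16.5 on aspen, 22.6, 55.7 and 28.3 on Avicel and 64, 96.1 and 70.5 on glucose. Its wood and Avicel libraries were likewise all below glucose, with a log2 change of -2.16 on aspen and -1.96 on pine (adjusted p = 0.000191 and 0.000378 for aspen and pine). Member 138804, an abundant one, had 119, 120.2 and 152 RPKM on pine, 235, 136 and 197 on aspen, 416, 396 and 572 on Avicel and 359, 516 and 373 on glucose. It was lower in all wood libraries than on Avicel or glucose, with a log2 change of -1.66 on pine (adjusted p = 0.000272) and -1.15 on aspen (adjusted p = 0.00322), and the aspen value fell under the fold threshold without aspen 2 (-0.93) or glucose 2 (-0.98).

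Moderately and faintly transcribed members that fell included 72477, 140041, 128040, 74624 and 139633. Member 72477 averaged 4.93 ± 0.775 RPKM on pine, 4.55 ± 1.33 on aspen and 28.6 ± 9.08 on glucose, with log2 changes of -2.27 and -2.39 for pine and aspen. Member 140041 averaged 6.77 ± 1.57, 8.38 ± 1.33 and 30.6 ± 2.08 RPKM on pine, aspen and glucose, with log2 changes of -2.04 and -1.76. Member 128040 averaged 2.6 ± 1.65, 1.95 ± 0.988 and 10.4 ± 0.869 RPKM, with log2 changes of -1.77 and -2.0, and 74624 had 12.4 ± 5.97, 14.8 ± 6.97 and 38.9 ± 4.1 RPKM, with -1.66 and -1.45. The wood ranges of 72477, 140041, 128040 and 74624 lay below their glucose ranges. Member 139633 had 5.22, 2.17 and 13 RPKM on pine, 2.83, 1.14 and 3.77 on aspen and 18.5, 17 and 19.9 on glucose. It fell on aspen (log2 change -2.52, SE 0.47, limma adjusted p = 0.00244), and its call on pine (-1.58, adjusted p = 0.0287) was lost without pine 1, pine 2 or any 1 glucose library (adjusted p up to 0.106).

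The neighbours 97657 and 64378 were faint. Member 97657 had 0.174, 0.271 and 0.831 RPKM on pine, 0.27, 0.394 and 0.13 on aspen, 1.87, 1.78 and 2.77 on Avicel and 4.55, 6.27 and 2.53 on glucose, and 64378 had 0, 0 and 0.33 RPKM on pine, 0, 0 and 0.258 on aspen, 1.68, 1.76 and 3.67 on Avicel and 4.5, 4.88 and 1.38 on glucose. Wood values were under 1 RPKM throughout and below all Avicel and glucose values. Their log2 changes on aspen were -2.05 and -1.98 and on pine -1.90 and -1.95, and all of these calls were lost with a pseudocount of 5. Member 88292 had 18.9, 9.33 and 45.9 RPKM on pine, 19.1, 5.26 and 16.9 on aspen, 43, 42.3 and 154 on Avicel and 63.2, 91.3 and 41.1 on glucose. Aspen lay below glucose with no overlap, and pine overlapped it. The aspen fall (log2 change -2.26, SE 0.64, limma adjusted p = 0.0224) lost its call without aspen 2, glucose 1 or glucose 2 (adjusted p up to 0.0934), and on pine the log2 change was -1.56 (SE 0.64, adjusted p = 0.0915). The 21 falls on pine ran from -2.71 to -1.05 with a median of -1.66, and the 23 on aspen from -2.66 to -1.02 with a median of -1.73. Among the calls against glucose described so far, a pseudocount of 5 also ended those of 24175 on aspen and 136925 on pine, and leaving out the 3 shallowest libraries those of 22508 on aspen and 139633 on pine.

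Avicel against glucose moved few P450 members past the threshold. Of 176 tested members, 5 were called (2.84%), beside 1.67% of all tested models, 2 of them higher and 3 lower. The share of all models was 0.962% higher and 0.707% lower, and the median log2 change was -0.07 for members and -0.18 for all models. At a fold of at least 4, 1 member was called, 138085 (0.568%, beside 0.383% of all models). Beyond 138085, already described, which rose by 2.34 on the log2 scale (SE 0.35, limma adjusted p = 0.00599), member 104807 had 15.4, 26.5 and 17.7 RPKM on pine, 26, 48.9 and 29 on aspen, 85.3, 86.8 and 77.2 on Avicel and 31, 26.9 and 32.3 on glucose. Its 3 Avicel libraries stood above every other library (log2 change 1.44, SE 0.23, limma adjusted p = 0.00844), and its pine libraries lay below the glucose range.

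The 3 falls on Avicel were 136915 (log2 change -1.79, SE 0.43, limma adjusted p = 0.0467), 167294 (log2 change -1.24, SE 0.30, limma adjusted p = 0.0486) and 141304 (log2 change -1.18, SE 0.28, limma adjusted p = 0.0461). In each, all 3 Avicel libraries were below all glucose libraries. Member 167294 had 175, 403 and 243 RPKM on pine, 96.6, 78.5 and 79.8 on aspen, 44.5, 67.3 and 46.2 on Avicel and 95.2, 111 and 178 on glucose. It was also higher in pine 2 and pine 3 than in any glucose library, and was called higher on pine against glucose (log2 change 1.06, adjusted p = 0.0229), a call lost without pine 2, glucose 1, glucose 2 or the 3 shallowest libraries. The 3 falls were at the edge of the test. Median centring or quantile normalization of the libraries, or a fit with the replicate number as a block, left 0 falls among 3, 2 and 2 called members, and leaving out 1 library gave 2 to 8 calls. Among the 12 libraries, 141304 kept its call without Avicel 2 alone, and 136915 and 167294 kept theirs without pine 1, pine 2 or Avicel 2. Without Avicel 1 the log2 change of 136915 was -1.20. The rises of 138085 and 104807 were called in each of these fits.

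Set against Avicel, the other polymeric carbon source, wood again moved members both ways. On pine 16 members were called higher and 20 lower, 36 in all (20.5%), beside 9.02% of all tested models (4.56% higher and 4.47% lower). On aspen 12 were called higher and 16 lower, 28 in all (15.9%), beside 7.23% of all tested models (3.51% higher and 3.72% lower). The median log2 change of members was 0.07 on pine and -0.03 on aspen, beside 0.04 and 0.05 for all models. The 3 Avicel libraries are common to both comparisons. The widest rises were those of 75851 (log2 change 5.04 on pine and 3.57 on aspen, or 2.99 without aspen 3), 90431 (4.67 and 3.31) and 104840 (3.68 and 2.75), with limma adjusted p of at most 0.00147 in each.

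Member 138085 was 2.11 higher on aspen than on Avicel on the log2 scale (adjusted p = 0.00227). Member 78067 was higher on pine (log2 change 3.18, adjusted p = 0.00359, with 3.81 without pine 2 and 2.53 without pine 3) and on aspen (2.18, adjusted p = 0.0283), where the call was lost without aspen 1, aspen 3 or any 1 Avicel library and the change was 1.59 without aspen 3. Member 133005 was higher on pine (log2 change 3.55, adjusted p = 0.0205), with 4.19 without pine 2 and 2.56 without pine 3. Its call was lost without pine 3, Avicel 2 or Avicel 3 (adjusted p up to 0.0584).

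Among the falls against Avicel, 166481 is an abundant member, with 194, 205 and 309 RPKM on pine, 782, 139 and 434 on aspen, 849.9, 707 and 1146 on Avicel and 605, 837 and 413 on glucose. All pine libraries were below all Avicel and glucose libraries, whereas the aspen libraries ran from below the pine range into the Avicel range. It was called lower on pine against Avicel (log2 change -1.93, SE 0.50, limma adjusted p = 0.02), which was lost without pine 1, pine 2 or Avicel 3 (adjusted p up to 0.073). Member 102645 fell against Avicel on pine (log2 change -2.23, adjusted p = 6.34e-05) and on aspen (-1.83, adjusted p = 0.000372), and 104807 on pine (-2.04, adjusted p = 0.000141). Member 143828 had 11, 10.6 and 22.4 RPKM on pine, 11.4, 8.04 and 18 on aspen and 67.7, 28.9 and 75.3 on Avicel, with wood ranges below Avicel (log2 change -2.07 on aspen, adjusted p = 0.00629).

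The neighbours 17446 and 17447, 163 bp apart on opposite strands of scaffold 5, had like profiles. Member 17446 had 3.95, 3.13 and 5.0 RPKM on pine, 5.92, 11.7 and 8.65 on aspen, 12.7, 39.2 and 27.1 on Avicel and 4.66, 5.65 and 36.5 on glucose. Member 17447 had 3.62, 1.54 and 3.9 RPKM on pine, 5.61, 6.84 and 7.46 on aspen, 11.5, 28.9 and 20.2 on Avicel and 2.31, 4.44 and 30.2 on glucose. Both were high in Avicel 2, Avicel 3 and glucose 3 and low in glucose 1, glucose 2 and every pine library. Their log2 changes, pine against Avicel, were -2.33 (adjusted p = 0.0208) and -2.37 (adjusted p = 0.0253), both lost without pine 1, pine 2, Avicel 2 or Avicel 3. On aspen against Avicel, 88292 fell by 2.34 on the log2 scale (adjusted p = 0.0285), lost without aspen 2, aspen 3 or Avicel 3 (log2 change -1.73 without the last). On the same comparison 139633 and 64378 had log2 changes of -2.09 (adjusted p = 0.0119) and -1.59 (adjusted p = 0.00808). Without the 3 shallowest libraries, an alternative added after seeing the data, the calls against Avicel of 64378, 88292, 17446, 17447, 143828 (on pine) and 166481 were lost, and with a pseudocount of 5 those of 64378 and of 133005. Calls against Avicel not described above were lost too. Those of 97657, 74624, 140041 and 128040 were lost on at least 1 wood under each of these changes. Member 155400 lost its call on aspen without the 3 shallowest libraries, and 72477 its call on pine with a pseudocount of 5.

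Between the woods no member was called, beside 16 of all tested models (0.157%, or 0.137% higher and 0.0196% lower on pine), and 27 members (15.3%) had an unadjusted limma p under 0.05, beside 697 of all tested models (6.84%). That count of 0 is set by the selection of members. Of the 5 models with the P450 label that are left out, 4 were called between pine and aspen, and the fifth, 24176, had an adjusted p of 0.285. A call was made for 1 member with the replicate number as a block (155285, lower on pine) and for 1 with only the woods in the fit (139932, higher on pine). The members nearest the threshold were 135540 (log2 change 0.83, under the fold threshold, adjusted p = 0.0607), 167294 (1.60, adjusted p = 0.064) and 134167 (-0.97, adjusted p = 0.086). Member 167294, at 175, 403 and 243 RPKM on pine and 96.6, 78.5 and 79.8 on aspen, was called without pine 1 or without glucose 3, and 57265 without pine 2. Member 155285, among the 10 most abundant, had 96.7, 68.1 and 135 RPKM on pine, 182, 298 and 264 on aspen, 286, 312 and 484 on Avicel and 164, 151 and 253 on glucose. Each pine library was below each aspen and Avicel library (log2 change -1.32 against aspen, adjusted p = 0.156, and -1.86 against Avicel, adjusted p = 0.00151), and it was called lower against Avicel.

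By InterPro class, calls fell as follows. Of 49 tested E-class group I members, 4 were called higher and 5 lower on pine (18.4%), and 4 higher and 6 lower on aspen (20.4%), against glucose. Of 119 tested members with none of the class words in the label, 16 were called higher and 16 lower on pine (26.9%), and 14 higher and 17 lower on aspen (26.1%). None of the 7 tested E-class group IV members was called in these comparisons or in Avicel against glucose. The single B-class member, 134167, had 56.5, 50.5 and 40.1 RPKM on pine, 94.1, 122 and 76.5 on aspen, 122, 102 and 94.5 on Avicel and 52.6, 48.8 and 66.4 on glucose, and was called lower on pine against Avicel (log2 change -1.10, adjusted p = 0.00253), under the fold threshold without pine 3 (-0.97). No difference between classes was tested.

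By position, 89 of the 202 members (44.1%) lay in 35 tandem groups, defined as runs of members on a scaffold with gaps of at most 10 kb. Of these groups, 29 had 2 or 3 members and 6 had 4 to 6. In tandem groups 10 members were called higher and 7 lower on pine (21.2% of 80 tested) and 12 higher and 8 lower on aspen (25%), against glucose. Outside them 10 were higher and 14 lower on pine (25% of 96 tested) and 6 higher and 15 lower on aspen (21.9%). All 5 members called on Avicel against glucose lay outside tandem groups. Of the 35 groups, 9 had a member called higher on pine or aspen, 5 had a member called lower, none had both and 21 had neither. In 5 groups, at least 2 members were called on pine or aspen. Among these are the close same-strand pairs 75851 with 90431 and 97657 with 64378, and whether each pair is separate genes was not tested.

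**Figure D5:**
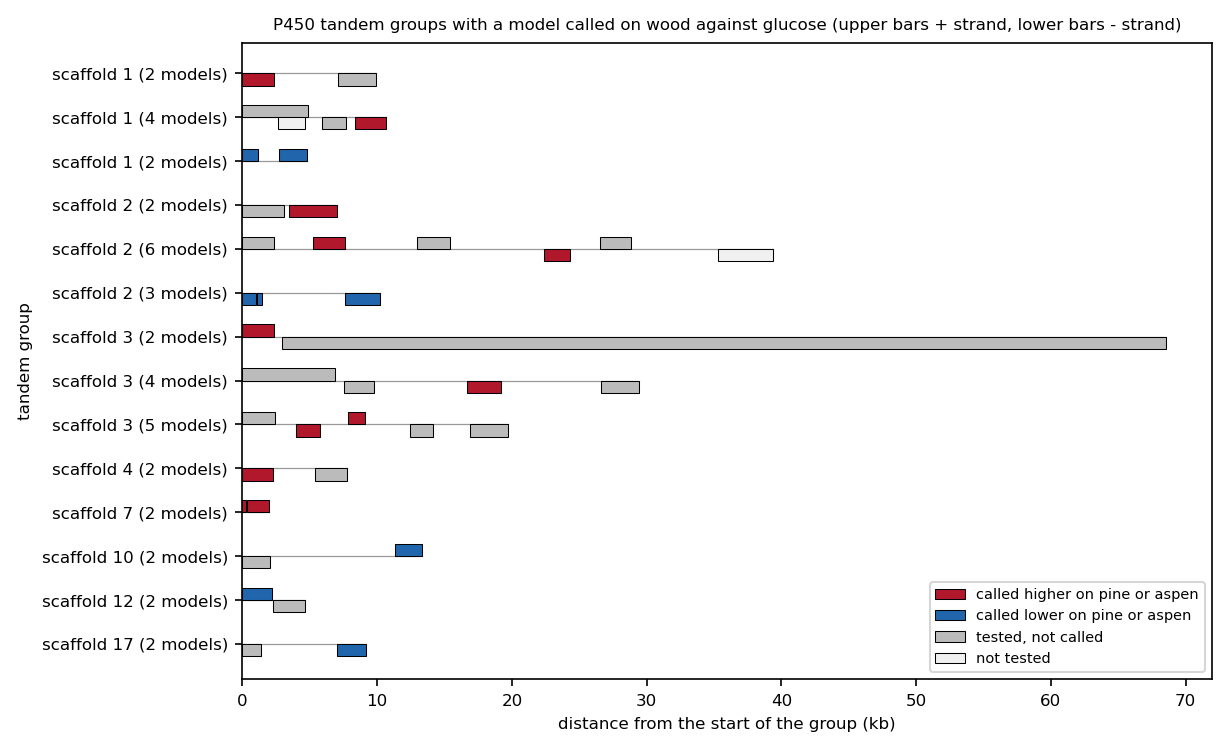
Map of the 14 tandem groups with a member called on pine or aspen against glucose, a row per group, with distance from the start of the group in kb. Bars are P450 members (upper on the + strand, lower on the - strand), red where called higher, blue where called lower, grey where tested and not called and white where not tested. No group holds both red and blue bars, and most red bars stand beside grey ones. The left-out models are not drawn.

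Neighbours in a group could differ widely. Member 22843 ends 381 bp before 22844 on scaffold 2 (group at 467419 to 474456). It had 96.7, 126 and 99.1 RPKM on pine, 109.9, 101 and 94 on aspen, 88.8, 103 and 92.6 on Avicel and 103, 99.5 and 78.6 on glucose. Its 4 groups of libraries overlapped, whereas those of 22844 on wood were all above its glucose and Avicel libraries. The group of 6 on scaffold 2 (3716485 to 3755883) held 97631 and 136428, called higher on wood, with 3 tested members that were not called and 1 not tested. Member 136428 had 17.1 ± 2.32 RPKM on pine, 16.6 ± 4.05 on aspen and 4.41 ± 0.351 on glucose (log2 change 1.74 and 1.68 for pine and aspen). The group of 5 on scaffold 3 (3536370 to 3556052) held 99042, with 68.3 ± 11.2, 77.2 ± 6.23 and 33 ± 0.626 RPKM on pine, aspen and glucose (log2 change 1.02 and 1.20), and 136925. The pine value of 99042 fell under the fold threshold with a pseudocount of 5 or without pine 1 (0.89).

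In the group of 4 on scaffold 3 (3449966 to 3479425), 24175 was called higher and the other 3 members, 150583, 68651 and 136921, were not. The left-out models 24176 and 24177 lie between 24175 and 136921, and the left-out 99035 lies past 136921. Against glucose all of these left-out models were called higher on pine (log2 change 5.89, 4.17 and 5.76 for 24176, 24177 and 99035) and on aspen (3.99, 1.32 and 2.60). With the left-out models put back, this was the largest group, at 7 models, so 24175 stands alone here through the selection of members. In the group of 4 on scaffold 1 (3888204 to 3898879) 22508 alone was called, and in that on scaffold 6 (2287590 to 2311731) 73749 alone was called, on pine against Avicel (log2 change 1.34, adjusted p = 0.0145) at 1.79, 3.84 and 2.1 RPKM on pine and 0, 1.56 and 0 on Avicel, a call lost without pine 2, Avicel 3 or the 3 shallowest libraries, and with a pseudocount of 5. None was called in the group of 4 on scaffold 7 (2276741 to 2293266). The group of 3 on scaffold 2 (3852943 to 3863132) held 97657, 64378 and 97658, all called lower on wood. Of 10 neighbouring pairs less than 500 bp apart, 7 were on the same strand, 6 of these with a model under 1100 bp. Whether such models share reads or a gene was not tested. In all, 28 members overlap another model, and no source used here says if counting took account of strand.

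Protein evidence was scarce for the family. Mass spectrometry scores, deposited as 1 value per carbon source without replicates, were listed for 3 members (1.49%), beside 704 of all models (5.52%). Each of these 3 members had a score above 0 on at least 1 carbon source. Member 138085 had an emPAI score, which grows with the number of peptides seen, of 0.202 from 5 peptides on aspen and 0 on pine, Avicel and glucose. Its mean RNA level was also highest on aspen, but the pine and aspen ranges overlapped. On pine, where its score was 0, every RNA value lay above the glucose values. Member 135641 had 0.15 on pine, 0.343 on aspen, 0 on Avicel and 0.114 on glucose. Member 134167 had 0.102 on pine, 0 on aspen and Avicel, and 0.119 on glucose, while its lowest aspen and Avicel RNA values lay above all pine and glucose values. A signal peptide probability was listed for 68 members (33.7%), 47 of them at 0.9 or more, beside 1041 models of the table (8.17%). Fungal P450s are usually held in the endoplasmic reticulum membrane by a hydrophobic stretch at their N terminus, so such a prediction does not show secretion.

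Electron partners of P450s were taken as models with cytochrome b5 or flavodoxin in their label, and most carried the cytochrome b5 label. They were placed by label alone, and whether any of them passes electrons to a P450 was not tested. Models with cytochrome P450 in the label were kept out. A model labelled NADPH-cytochrome P450 reductase, if there was any, would thus be counted among the family members and not listed here. The list numbered 34, of which 32 were tested. On pine 4 were called higher and 1 lower (15.6%, beside 11.8% of all tested models), on aspen 2 and 1 (9.38%, beside 11.8%), and on Avicel none, against glucose. The list's median log2 change was 0.14 on pine and 0.11 on aspen, beside -0.14 and -0.12 for all models. Cytochrome b5 model 140500 had 45.8, 42 and 46.8 RPKM on pine, 31.9, 34.9 and 28.9 on aspen, 12.8, 12 and 14.7 on Avicel and 8.63, 8.23 and 7.91 on glucose. Wood lay above Avicel and Avicel above glucose without overlap, with a log2 change of 2.31 on pine and 1.83 on aspen (adjusted p = 2.72e-07 and 2.18e-06). The flavodoxin-labelled model 136700 had 349 ± 29.2 RPKM on pine, 397 ± 37.2 on aspen and 168 ± 13.1 on glucose (log2 change 1.05 and 1.24). Cytochrome b5 model 28650 went the other way, with 23.1, 1.58 and 31.1 RPKM on pine, 25.2, 7.24 and 29.9 on aspen, 251, 253 and 197 on Avicel and 152, 86 and 71 on glucose. Its wood libraries were all below the glucose and Avicel libraries (log2 change -2.97 on pine, adjusted p = 0.0173, and -2.39 on aspen, adjusted p = 0.0441).

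Enzymes of the glutathione S-transferase and UDP-glycosyltransferase families can act on oxidised products in detoxification. The conjugation list was taken by these labels, nearly all of them glutathione S-transferase, and the role of each model was not tested. It numbered 30 models, of which 27 were tested for a change. Against glucose, 1 was called higher and 5 lower on pine, none higher and 6 lower on aspen, and none higher and 2 lower on Avicel. The shares called lower were 18.5%, 22.2% and 7.41% on pine, aspen and Avicel, beside 6.2%, 6.56% and 0.707% of all tested models. The median log2 change was -0.24 on pine, -0.33 on aspen and -0.46 on Avicel, beside -0.14, -0.12 and -0.18 for all models.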

How the data were processed

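The deposited table held 12 columns of per-library values, 3 libraries for each of 4 carbon sources. The deposited values were taken as RPKM. No header names the unit, which was inferred from the values. Per the submitters' processing notes, CASAVA 1.8.2 was used. For the aligner, the counting tool and the build, the sources used here name nothing. Reads were single and 100 nt long, per the labels. The emPAI score and peptide numbers came as 1 deposited value for each carbon source, and the signal peptide probability as a fraction from 0 to 1.

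Depth was recovered as the most frequent worth of 1 read among models with low values. No count table was used. Models were tested if some group averaged 1 RPKM or more (10184 models). Their log2(RPKM + 1) values were fitted with limma 3.58.1 (R 4.3.3), the 4 groups together, with an intensity trend and empirical Bayes moderation (8 residual degrees of freedom, 3.64 prior). A call needed an adjusted p (Benjamini-Hochberg) under 0.05 over all tested models together with a fold of at least 2, and the F test had no fold threshold. The procedure was tested on simulated data with known changes. The cultures are labelled as separate triplicates.

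Members named were the 10 most abundant, every called member on Avicel against glucose, the 10 largest called rises and falls on each wood against glucose, the 5 largest against Avicel, called members of tandem groups of 4 or more, and members with a protein score; 97658, 22843, 135540, 139932, 57265, partner models 140500, 136700 and 28650, and the left-out models were added after their values were seen. The members, partner lists, tests and alternatives were chosen with earlier results of these data known. The correlation of same-numbered libraries' deviations from their group means ran from -0.418 to 0.437 over 18 pairs and was over 0.1 in 7 of them, highest for pine 3 with aspen 3. Since not every pair was over 0.1, the numbers were not taken to pair the libraries and the main model has no block. Alternatives changed the pseudocount, filter, scaling, fold threshold, groups in the model and libraries left out.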

Additional observations from a re-analysis of the deposited data

Results flagged for a closer look

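Protein scores lie outside the RNA comparisons, and 3 of them were above the value of the glucose culture for the same protein. The emPAI score of 138085 was 0.202 on aspen, against 0 on glucose. The emPAI score of 135641 was 0.343 on aspen and 0.15 on pine, against 0.114 on glucose. Each is a single value without replicates, so no test was made.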

How the results depend on the processing

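For Avicel against glucose, where 5 members were called, the count was 2 with a pseudocount of 0.1, 2 without a filter, 3 with median centring, 2 with quantile normalization, 9 without a fold threshold and 2 without the 3 shallowest libraries, an alternative added after seeing the data. Median centring left 3 higher and 0 lower, and quantile normalization 2 higher and 0 lower. Without a fold threshold the count was 65 on aspen and 65 on pine against glucose, where 41 were called on each. With a pseudocount of 5 it was 22 on pine against Avicel, where 36 were called. For pine against aspen, with 0 called, it was 1 with only those groups in the model and 4 with the 5 left-out models. With the replicate number as a block the count was 2 on Avicel, 44 on aspen and 44 on pine against glucose, 32 on aspen and 38 on pine against Avicel, 1 on pine against aspen, and 75 in the F test. Leaving out each library in turn gave 2 to 8 calls on Avicel, 36 to 44 on aspen and 38 to 47 on pine against glucose, 21 to 34 on aspen and 28 to 38 on pine against Avicel, 0 to 1 on pine against aspen, and 61 to 79 in the F test. The tandem groups numbered 31 with gaps of at most 5 kb and 41 with gaps of at most 20 kb, against 35 at 10 kb. Of 107 calls of named members, 71 were kept under every alternative run, 36 were lost under at least 1, 23 of these without some single library, and 0 changed sign. The cause of these shifts was not tested. Depth limits the faint members, since 3 reads per kb equal up to 0.305 RPKM.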
